A study of Rattus norvegicus with 12 samples.

Results

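Collagen VI and the collagens that sit on the surface of collagen fibrils were followed in rat knee chondrocytes as a set of 7 genes: Col6a1, Col6a2 and Col6a3, which encode the main chains of collagen VI, and Col12a1, Col14a1, Col16a1 and Col22a1, which encode fibril-associated collagens. The genes were taken by symbol, and all 7 were among the 28546 genes of the expression table. RNA was sequenced in 12 libraries, 3 from each of 4 groups of knees of male Sprague Dawley rats whose age was not stated in the sources used here. Lipo-CGS knees were injured and then injected with liposomes carrying CGS21680, a selective adenosine receptor agonist. Lipo knees were injured and given empty liposomes, and Saline knees were injured and given saline. Uninvolved knees were the uninjured comparison, and no injection was listed for them. The injury was a rupture of the anterior cruciate ligament by compression of the tibia, a model of post-traumatic osteoarthritis, and injections of 100 µl began at week 4 and were repeated every 10 days over 8 weeks. Each library pooled cartilage of 3 rats, and the cells were freed with pronase and collagenase and then put in culture before RNA was taken, for a time that was not stated.

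Collagen VI is built from 1 chain of each main kind and forms beaded microfilaments. In cartilage it is concentrated in the pericellular matrix, the thin shell between a chondrocyte and the bulk matrix. Fibril-associated collagens have interrupted triple helices and do not form fibrils of their own. Types XII and XIV bind along the surface of collagen I fibrils in tendon, ligament and other dense tissues, type XVI is found in several connective tissues including cartilage, and type XXII is known from tissue junctions such as that of muscle and tendon.

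The fibril-associated members and the collagen VI chains behaved differently. The RNA of Col12a1 and Col14a1 was several-fold higher in Lipo-CGS and Lipo knees than in Saline and uninvolved knees. That of Col16a1 was 2.14-fold to 2.44-fold higher. By mean level Col6a1 and Col6a2 ranked between 22 and 33 and Col6a3 between 191 and 374 among the tested genes in each group. The 3 chains differed by less than 1.5-fold in every comparison. The ratios of Col6a1 and Col6a2 to Col6a3 were lower in Lipo-CGS and Lipo knees than in Saline and uninvolved knees. For each such pair of groups the exact permutation p was 0.18 after adjustment. Col22a1 was listed at no more than 0.01 FPKM in any library.

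Values are FPKM, fragments per kilobase of gene scaled to the reads of a library, as deposited. The test took every gene that reached 1 FPKM in 3 or more libraries, which left 11373 genes and 6 of the 7 members, all but Col22a1. Fold changes and p-values come from a limma fit to log2(FPKM + 0.5) over all 12 libraries, so a fold change of a low gene is understated. A gene was called at an adjusted p under 0.05 (Benjamini-Hochberg over all genes tested) together with a change of more than 1.5-fold. The Lipo-CGS and Lipo groups were each set against the same Saline and uninvolved libraries, so those comparisons are not independent of each other. The study's methods give fewer rats per group than 3 separate pools would need, and they do not say which libraries share animals, so the p-values measure only the spread between these samples.

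The libraries held cartilage RNA by their markers. All 10 chondrocyte markers were above 0 in every library, and their summed level was 11423 to 16445 FPKM in Lipo-CGS knees and 9227 to 14741 FPKM in Lipo knees, against 5355 to 9977 FPKM in Saline knees and 8489 to 9989 FPKM in uninvolved knees. Endothelial markers summed to at most 0.15 FPKM, and the 4 leukocyte markers in the table summed to 2.64 to 3.77 FPKM in Lipo-CGS knees and 1.5 to 2.61 FPKM in Lipo knees, against 5.96 to 18.2 FPKM in Saline and 3.47 to 9.22 FPKM in uninvolved knees. Of these, Cd68 was at 1.4 to 8.8 FPKM over the 12 libraries, Ptprc reached at most 0.09 FPKM and Cd3e was listed at 0 throughout. Saline replicate 3 stood farthest from its own group of the 12 libraries, with a root mean square distance of 0.385 in log2 units, and uninvolved replicate 3 followed at 0.376. The FPKM columns summed to between 406630 and 544170, and steps in the low values gave relative read depths of 0.814 to 1.15. Absolute depth is unknown. In bulk RNA such as this, fewer cells of a type and less RNA per cell cannot be told apart.

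Col6a1 encodes the α1 chain of collagen VI. Its level was 1123, 1006 and 1015 FPKM in Lipo-CGS knees, 1664, 1266 and 1274 FPKM in Lipo knees, 1411, 1292 and 1244 FPKM in Saline knees, and 1271, 1405 and 1642 FPKM in uninvolved knees. The 3 Lipo-CGS libraries were the lowest of the 12 and did not overlap any other group, whereas the other groups overlapped one another. By mean level Col6a1 ranked between 25 and 33 among the tested genes in each group.

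Col6a2 encodes the α2 chain. It was at 1191, 1057 and 1078 FPKM in Lipo-CGS knees, 1741, 1383 and 1439 FPKM in Lipo knees, 1448, 1284 and 1214 FPKM in Saline knees, and 1436, 1559 and 1563 FPKM in uninvolved knees. Again the Lipo-CGS libraries were the lowest, and the means of Lipo knees (1521 ± 192 FPKM) and uninvolved knees (1519.6 ± 72.4 FPKM, SD, n = 3 each) were nearly equal. Over the 12 libraries Col6a1 and Col6a2 followed each other with a Pearson r of 0.94, and of 0.89 after group means were removed, as a description over libraries that share their groups.

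Col6a3 encodes the α3 chain, the longest of the main chains, whose C-terminal end is cleaved off as the fragment endotrophin. It was at 219, 203 and 195 FPKM in Lipo-CGS knees, 311, 260.5 and 248 FPKM in Lipo knees, 233, 170.3 and 164 FPKM in Saline knees, and 193, 189 and 232 FPKM in uninvolved knees. Here the Lipo libraries were the highest, above every library of the other groups, and the remaining groups overlapped.

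Of the 7 members, 3 had a promoter sequence in the RefSeq table (build GRCr8). The stretches before the outermost start of Col6a1 and Col6a3 are shown because the ratio of their RNA differed between knees with and without liposomes. The products of these chains enter the same molecule. Capitals mark matches to 4 motifs searched on both strands: TGANTCA (AP-1), GGGCGG (the GC box), CCAAT and TATAAA.
Col6a1, chr20:11905440-11905689, plus strand: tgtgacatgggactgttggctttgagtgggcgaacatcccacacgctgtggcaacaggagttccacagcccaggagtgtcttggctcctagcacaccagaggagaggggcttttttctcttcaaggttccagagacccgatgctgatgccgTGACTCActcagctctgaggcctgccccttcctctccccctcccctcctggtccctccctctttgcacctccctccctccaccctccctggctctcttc
Col6a3, chr9:98887061-98887208, minus strand: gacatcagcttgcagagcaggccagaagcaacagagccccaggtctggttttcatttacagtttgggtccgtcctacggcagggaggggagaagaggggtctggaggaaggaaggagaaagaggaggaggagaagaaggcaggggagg
The Col6a1 stretch of 250 bases held 1 match, TGACTCA, starting 99 bases before the start of the gene, and the 148 bases of Col6a3 held none. Among the 250-base windows of 33469 promoters in the table, 6.34% held TGANTCA, 30.5% the GC box, 34% CCAAT and 12.9% TATAAA. The Col16a1 window lay inside the span of its gene and is not shown. It held 2 GC boxes and none of the other motifs. A match is a description of the letters only.

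**Figure D1:**
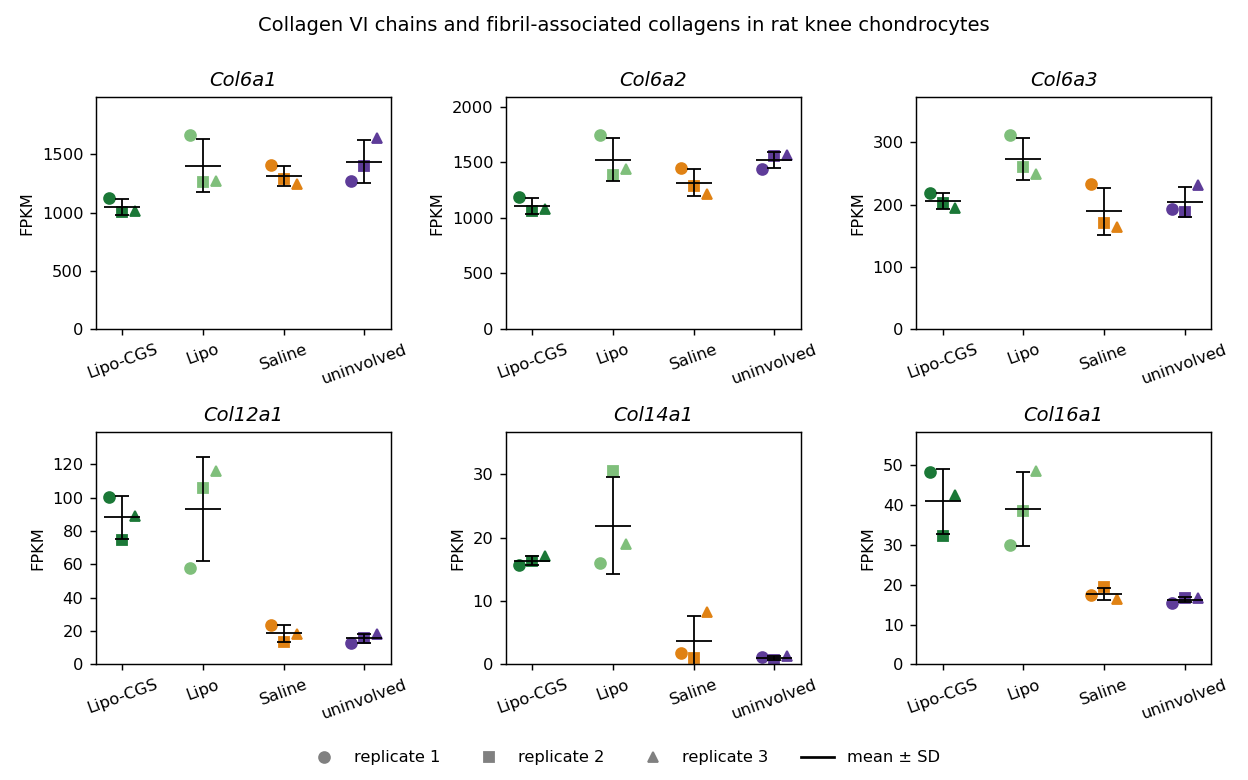
Level of each tested member in FPKM (linear axis from 0) in every library, by group. Points are libraries with a symbol per replicate, and bars are the mean ± SD of 3. Col12a1, Col14a1 and Col16a1 stand higher in all 6 liposome-injected libraries than in the 6 others. The share of all genes that separate in this way was not counted. Col6a1 and Col6a2 are lowest in Lipo-CGS.

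Tests of the collagen VI chains gave small changes. In Lipo-CGS against uninvolved knees, Col6a1 had a log2 fold change of -0.45 ± 0.15 (SE, adjusted p = 0.0274) and Col6a2 one of -0.46 ± 0.14 (adjusted p = 0.0164), both under the 1.5-fold limit, while Col6a3 was at 0.01 ± 0.15 (adjusted p = 0.953). In Lipo against uninvolved knees Col6a3 was again the highest of the 3 chains, at 0.42 ± 0.15 (adjusted p = 0.0292). Col6a1 and Col6a2 were at -0.04 and -0.005 there (adjusted p = 0.829 and 0.979). None of these passed both thresholds.

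Against Saline knees, Col6a3 was 0.54 ± 0.15 log2 units higher in Lipo knees, which is 1.46-fold (adjusted p = 0.0106). This sits just under the fold limit. Leaving out Saline replicate 1 raised it to 0.70 and leaving out Lipo replicate 3 to 0.61, and both then passed the limit. The other values against Saline did not pass the test, with adjusted p between 0.103 and 0.683.

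The direct comparison of Lipo-CGS with Lipo knees asks what the agonist added to the liposomes. The 3 chains had nearly the same log2 fold change in it: -0.41 for Col6a1 (95% interval -0.74 to -0.08), -0.45 for Col6a2 (-0.75 to -0.15) and -0.41 for Col6a3 (-0.72 to -0.09). After adjustment over all genes their p-values were 0.187, 0.127 and 0.179, so none was called. In this comparison 0.0791% of all tested genes were called higher and 0.0879% lower, and 0 of 6 members were called in either direction. At an unadjusted p under 0.05, 3 of the 6 members, the 3 chains, and 2087 of all 11373 genes passed.

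Because FPKM is per length, the chains can be compared with one another within a library. The ratio of Col6a1 to Col6a3 was 5.13, 4.95 and 5.21 in Lipo-CGS knees and 5.35, 4.86 and 5.13 in Lipo knees, against 6.06, 7.59 and 7.60 in Saline knees and 6.59, 7.44 and 7.08 in uninvolved knees. All 6 liposome-injected libraries were below all 6 others. Col6a2 to Col6a3 gave the same split, 5.21 to 5.79 in liposome-injected knees against 6.22 to 8.26 in knees without liposomes.

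With 3 libraries against 3, each of these splits has an exact permutation p of 0.1 (two-sided), the smallest that design allows, and 0.18 after adjustment over the 18 ratio comparisons. A comparison of the 6 liposome-injected libraries with the 6 without, chosen after the values were seen, put the Col6a1 to Col6a3 ratio at 0.725-fold (log2 difference -0.46) and the Col6a2 to Col6a3 ratio at 0.756-fold (-0.40). No test is given for it, because the groups were known not to overlap when it was chosen. That grouping joins injured with uninjured knees. Col6a1 to Col6a2 stayed near 1 throughout, at 0.885 to 0.956 against 0.885 to 1.05.

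**Figure D2:**
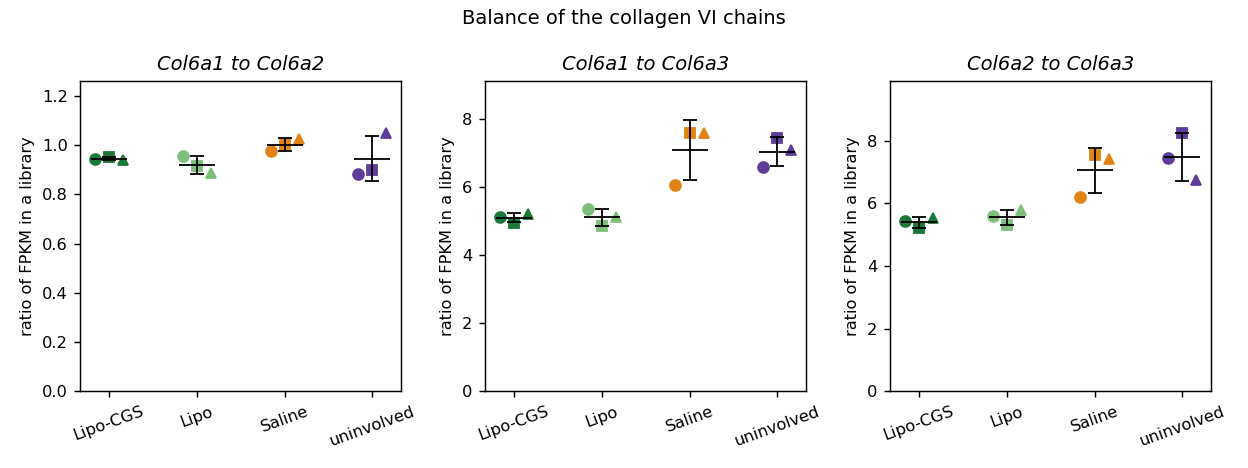
Ratios of FPKM between the collagen VI chains within each library (linear axes from 0), by group, with the mean ± SD of 3 as bars. Both ratios to Col6a3 are lower in Lipo-CGS and Lipo than in Saline and uninvolved, without overlap, whereas Col6a1 to Col6a2 stays between 0.885 and 1.05.

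Col12a1 encodes the single chain of collagen XII, a homotrimer with large N-terminal arms that reach out between fibrils. It was at 100.5, 74.65 and 89.3 FPKM in Lipo-CGS knees and 57.8, 106 and 116 FPKM in Lipo knees, against 23.6, 13.7 and 18.4 FPKM in Saline knees and 12.9, 16.1 and 18.2 FPKM in uninvolved knees. The lowest liposome-injected library was above the highest of the others, and Saline and uninvolved knees overlapped. By mean level it ranked 820 in Lipo-CGS and 721 in Lipo knees, against 4031 in Saline and 4567 in uninvolved knees.

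The log2 fold change of Col12a1 was 2.45 ± 0.26 in Lipo-CGS and 2.48 ± 0.26 in Lipo against uninvolved knees (adjusted p = 0.000124 and 7.7e-05). Against Saline knees it was 2.24 ± 0.26 and 2.27 ± 0.26 (adjusted p = 0.000336 and 0.00023), or 4.73-fold and 4.82-fold. All 4 were called.

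Col14a1 encodes collagen XIV, a close relative of collagen XII that limits fibril width in developing mouse tendon. Its level was 15.7, 16.3 and 17.1 FPKM in Lipo-CGS knees and 16.1, 30.5 and 19.0 FPKM in Lipo knees, against 1.82, 0.94 and 8.18 FPKM in Saline knees and 1.12, 0.74 and 1.36 FPKM in uninvolved knees. The Lipo-CGS libraries were unusually close together (SD 0.682 FPKM), and Saline replicate 3 was the one library without liposomes that stood clearly above the rest.

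Col14a1 differed from uninvolved knees by a log2 fold change of 3.44 ± 0.50 in Lipo-CGS (10.9-fold, adjusted p = 0.00044). In Lipo knees it was 3.80 ± 0.50 (13.9-fold, adjusted p = 0.000184). Each was the largest change of any member in its comparison. Against Saline the values were 2.45 ± 0.50 in Lipo-CGS and 2.81 ± 0.50 in Lipo knees (adjusted p = 0.00343 and 0.0014). Without Saline replicate 3 they were 3.20 and 3.56, both still called. In Saline against uninvolved knees, Col14a1 was at 0.99 ± 0.50 (adjusted p = 0.809), and at 0.24 without that library.

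Saline replicate 3 also had the most Col1a1, the α1 chain of collagen I, of any library without liposomes, at 770.5 FPKM against 107 and 35.8 in the other Saline knees. The fibroblast markers of that library summed to 199 FPKM. They summed to 98.9 FPKM in the lowest Saline library and to 88.4 to 104 FPKM in uninvolved knees. Of its tendon and ligament markers, Tnmd was at 0.67 FPKM, and this gene did not pass the filter. Scx was at 37.1 FPKM, beside 42.0 and 25.7 FPKM in the other Saline knees. Mkx was at 4.73 FPKM, beside 5.98 and 6.04 FPKM. Its leukocyte markers summed to 18.2 FPKM, against 5.96 and 6.16 FPKM in the other Saline knees, with Lyz2 at 10.3 FPKM beside 0.58 and 0.52 FPKM. The part of these in the Col14a1 value of Saline knees was not tested.

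Col16a1 encodes collagen XVI. It was at 48.2, 32.2 and 42.5 FPKM in Lipo-CGS knees and 29.9, 38.6 and 48.6 FPKM in Lipo knees, against 17.3, 19.3 and 16.4 FPKM in Saline knees and 15.5, 16.7 and 16.5 FPKM in uninvolved knees. Saline and uninvolved knees lay close together, and both were below every liposome-injected library.

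The log2 fold change of Col16a1 against uninvolved knees was 1.29 ± 0.17 in Lipo-CGS and 1.21 ± 0.17 in Lipo (adjusted p = 0.000291 and 0.000263), and against Saline knees 1.17 ± 0.17 and 1.10 ± 0.17 (adjusted p = 0.00075 and 0.000806). These are changes of 2.14-fold to 2.44-fold.

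**Figure D3:**
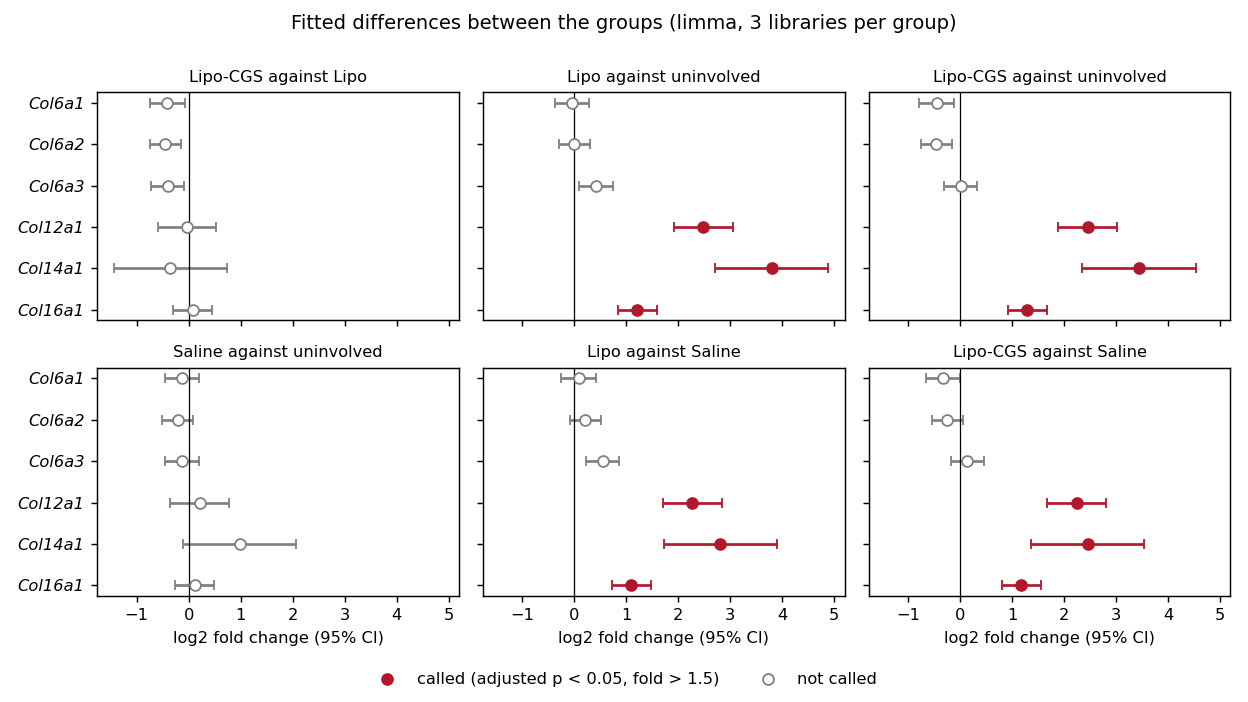
Fitted log2 fold change of each tested member in 6 comparisons with its 95% interval, filled red where called. Col12a1, Col14a1 and Col16a1 are called higher in the 4 panels that set a liposome group against uninvolved or Saline knees, and no member is called in Lipo-CGS against Lipo or in Saline against uninvolved.

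Read against all genes, 3 of 6 tested members were called higher in Lipo-CGS against uninvolved knees, where 11.7% of genes were called higher and 14% lower, and 3 of 6 in Lipo against uninvolved knees, where 14.1% were called higher and 16.3% lower. Against Saline the count was again 3 of 6, beside 8.23% higher and 10.3% lower for Lipo-CGS and 10.6% higher and 12.3% lower for Lipo. The contrast of both liposome groups with both groups without liposomes was chosen with earlier results of these data known. It joins injured with uninjured knees. There 3 of 6 members were called higher, beside 10.9% higher and 13.4% lower among all genes. The log2 fold changes were 2.36 for Col12a1, 3.12 for Col14a1 and 1.19 for Col16a1. No member was called lower in any of the 7 comparisons. The median log2 fold change of the 6 members was 0.65 in Lipo-CGS and 0.81 in Lipo against uninvolved knees, beside medians over all genes of 0.01 and -0.01.

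Saline against uninvolved knees asks what the injury with saline did. Here 0 of 6 members were called, and 0% of all genes were called higher and 0% lower. At an unadjusted p under 0.05, 0 of 6 members and 566 of 11373 genes passed. The 95% intervals of the log2 fold change ran from -0.35 to 0.78 for Col12a1, -0.10 to 2.07 for Col14a1 and -0.26 to 0.49 for Col16a1. For Col12a1 and Col14a1 these still include a change of more than 1.5-fold upward.

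For the fibril-associated members, Lipo-CGS against Lipo knees gave log2 fold changes of -0.03 for Col12a1 (95% interval -0.59 to 0.53), -0.36 for Col14a1 (-1.44 to 0.73) and 0.08 for Col16a1 (-0.30 to 0.45). Adjusted p was 0.963, 0.741 and 0.843. The groups overlapped for all 3 genes. The intervals still allow a change of more than 1.5-fold in either direction for Col14a1 and, barely, downward for Col12a1.

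Col12a1, Col14a1 and Col16a1 separated the same libraries but did not track one another closely within groups. How many of all genes separate these libraries in the same way was not counted. Over the 12 libraries r was 0.97 for Col12a1 with Col16a1, 0.92 for Col12a1 with Col14a1 and 0.86 for Col14a1 with Col16a1. After group means were removed these were 0.63, 0.29 and -0.15. The ratio of Col12a1 to Col14a1 was 3.47 to 6.40 in liposome-injected libraries, against 2.24 in Saline replicate 3 and 11.5 to 21.8 in the other libraries without liposomes.

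Some markers of other cells moved with the liposome groups too, upward or downward. The fibroblast markers summed to 165 to 218 FPKM in Lipo-CGS knees and 225 to 246 FPKM in Lipo knees, against 98.9 to 199 FPKM in Saline and 88.4 to 104 FPKM in uninvolved knees. Of the 4 fibroblast markers tested, Thy1 was called higher in Lipo-CGS and Thy1 and Dpt in Lipo against uninvolved knees, and Cd34 was below the filter. The smooth muscle and pericyte markers summed to 413 to 462 FPKM in Lipo-CGS knees and 471 to 622 FPKM in Lipo knees. Their sums were 261 to 517 FPKM in Saline and 211 to 271 FPKM in uninvolved knees. Acta2 and Tagln carried these sums, and both were called higher in each liposome group against uninvolved knees. Against Saline knees Acta2 was called in both, but Tagln in neither (log2 fold change 0.19 for Lipo-CGS, 0.33 for Lipo). Myh11 reached at most 1.3 FPKM and Rgs5 at most 0.04 FPKM, each in a Saline library, and neither passed the filter. The tendon and ligament markers were not higher with liposomes. They summed to 28.2 to 35.1 FPKM in Lipo-CGS knees and 28.4 to 34.4 FPKM in Lipo knees. The range was 31.8 to 47.9 FPKM for Saline and 34.9 to 47.3 FPKM for uninvolved knees. Tnmd was listed at 0 in all 6 liposome-injected libraries. Markers of 4 other kinds were called lower in both Lipo-CGS and Lipo against uninvolved knees, each the only gene of its list that passed the filter. The log2 fold change was -0.86 and -1.53 for the leukocyte marker Cd68, -1.34 and -1.62 for the adipocyte marker Fabp4, -2.15 and -1.02 for the osteoblast marker Ibsp, and -1.25 and -1.18 for the muscle marker Des. The part of any of these markers in the levels of Col12a1, Col14a1 and Col16a1 was not tested.

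The other collagen VI chains were nearly silent. Col6a4 and Col6a5 were listed at 0 in all 12 libraries and Col6a6 at no more than 0.03 FPKM, so 0 of 3 were tested. Other fibril-associated collagens were represented by collagen IX, which decorates collagen II fibrils in cartilage. Of 4 tested genes of that list, 2 were called higher in both Lipo-CGS and Lipo against uninvolved knees. Among all genes, 11.7% were called higher in Lipo-CGS and 14.1% in Lipo there.

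Col9a1 averaged 72.9 ± 11.0 FPKM in Lipo-CGS knees and 67.6 ± 31.0 FPKM in Lipo knees, against 33.1 ± 9.52 FPKM in uninvolved knees (log2 fold change 1.16 and 0.95). Col9a2 averaged 123 ± 22.7 and 88.6 ± 38.6 FPKM in the same 2 liposome groups, against 39.1 ± 6.02 FPKM in uninvolved knees (1.64 and 1.06). The Lipo count fell to 1 without Lipo replicate 2 and to 0 without Lipo replicate 3, uninvolved replicate 1 or uninvolved replicate 2. It was also 0 with no filter on low values and 1 when only the compared groups were fitted. The Lipo-CGS count fell to 1 without Lipo-CGS replicate 1 or uninvolved replicate 1. Col19a1 stayed at or under 0.01 FPKM.

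Of the fibril-forming collagens, whose fibrils the members bind or border, 8 were tested. Against uninvolved knees 4 were called higher in Lipo-CGS and 5 in Lipo, beside 11.7% and 14.1% of all genes. Col3a1, which co-assembles with collagen I, averaged 506 ± 28.2 and 971 ± 66.5 FPKM in Lipo-CGS knees and Lipo knees, against 231 ± 9.81 FPKM in uninvolved knees (log2 fold change 1.13 and 2.07). Col5a1, a chain of the collagen that helps start fibrils, averaged 125 ± 15.8 and 188 ± 18.0 FPKM in Lipo-CGS knees and Lipo knees, against 56.8 ± 14.7 FPKM in uninvolved knees (1.15 and 1.75). Col5a2 and Col11a1 were also called in both, at 0.72 and 0.63 in Lipo-CGS and 1.22 and 1.03 in Lipo.

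Col1a1 was the fifth in Lipo, and it is named here after its values were seen. It was at 87.9, 84.0 and 83.0 FPKM in Lipo-CGS knees, 1315, 677 and 1020.3 FPKM in Lipo knees, 107, 35.8 and 770.5 FPKM in Saline knees, and 94.3, 20.3 and 129.65 FPKM in uninvolved knees. The Lipo-CGS and Lipo libraries did not overlap, yet the log2 fold change of -3.50 between them had an adjusted p of 0.0992. Col3a1 stood at -0.94 in the same comparison (adjusted p = 0.0613). Both were called lower in Lipo-CGS when only the 6 libraries of the comparison were fitted and when Saline replicate 3 was left out, and Col3a1 was also called without Saline replicate 2 or without uninvolved replicate 3.

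Of the cell-surface receptors that bind collagen VI or related collagens, 7 were tested. Against uninvolved knees 4 were called higher in Lipo-CGS and 5 in Lipo, beside 11.7% and 14.1% of all genes. Itga11, an integrin chain that binds fibrillar collagens, averaged 28.2 ± 1.98 FPKM in Lipo-CGS knees and 39.3 ± 9.11 FPKM in Lipo knees, against 12.8 ± 2.15 FPKM in uninvolved knees (log2 fold change 1.12 and 1.57). Itga1, the integrin chain that binds collagen IV and collagen VI, was at 1.43 and 1.88, and its partner Itgb1 at 0.74 and 1.03. Antxr1, an anthrax toxin receptor whose ligands include collagen VI, was at 1.12 and 1.70. Against Saline knees Antxr1 was not called, at 0.24 in Lipo-CGS and 0.82 in Lipo (adjusted p = 0.558 and 0.052), with means of 7.45 ± 1.18 FPKM in Lipo-CGS knees and 11.3 ± 1.42 FPKM in Lipo, against 7.003 ± 4.59 FPKM in Saline knees. Cspg4, the NG2 proteoglycan, which binds collagen VI directly, was level at 83.9 ± 8.52 FPKM in Lipo-CGS, 94.4 ± 9.66 FPKM in Lipo, 82.0 ± 5.10 FPKM in Saline and 82.5 ± 5.996 FPKM in uninvolved knees (mean ± SD, n = 3 each), and was not called in any comparison.

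Calls among the matrix partners went in both directions. In Lipo-CGS against uninvolved knees 4 of 9 tested were called higher and 1 lower, and in Lipo 3 were called higher and 2 lower. Bgn, the proteoglycan biglycan, which binds collagen VI and organises its filaments, averaged 1341 ± 137 FPKM in Lipo-CGS knees and 1224 ± 148 FPKM in Lipo knees, against 662 ± 36.5 FPKM in uninvolved knees (log2 fold change 1.01 and 0.88). Comp, the cartilage oligomeric matrix protein, which binds collagens including types IX and XII, averaged 731 ± 200 and 550.3 ± 198 FPKM in Lipo-CGS knees and Lipo knees, against 177 ± 7.73 FPKM in uninvolved knees (2.01 and 1.57). Fn1, fibronectin, was at 1.30 and 1.25.

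Vwa1, a protein of the chondrocyte pericellular matrix also called WARP that binds collagen VI and perlecan, was the partner called lower in both. It averaged 13.3 ± 1.12 FPKM in Lipo-CGS knees and 11.2 ± 0.940 FPKM in Lipo knees, against 19.1 ± 2.53 FPKM in Saline and 23.4 ± 2.45 FPKM in uninvolved knees. The log2 fold change against uninvolved knees was -0.79 and -1.03 (adjusted p = 0.000508 and 0.000116). No gene of the 5 lists was called in Lipo-CGS against Lipo or in Saline against uninvolved knees in the fit over all 12 libraries.

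**Figure D4:**
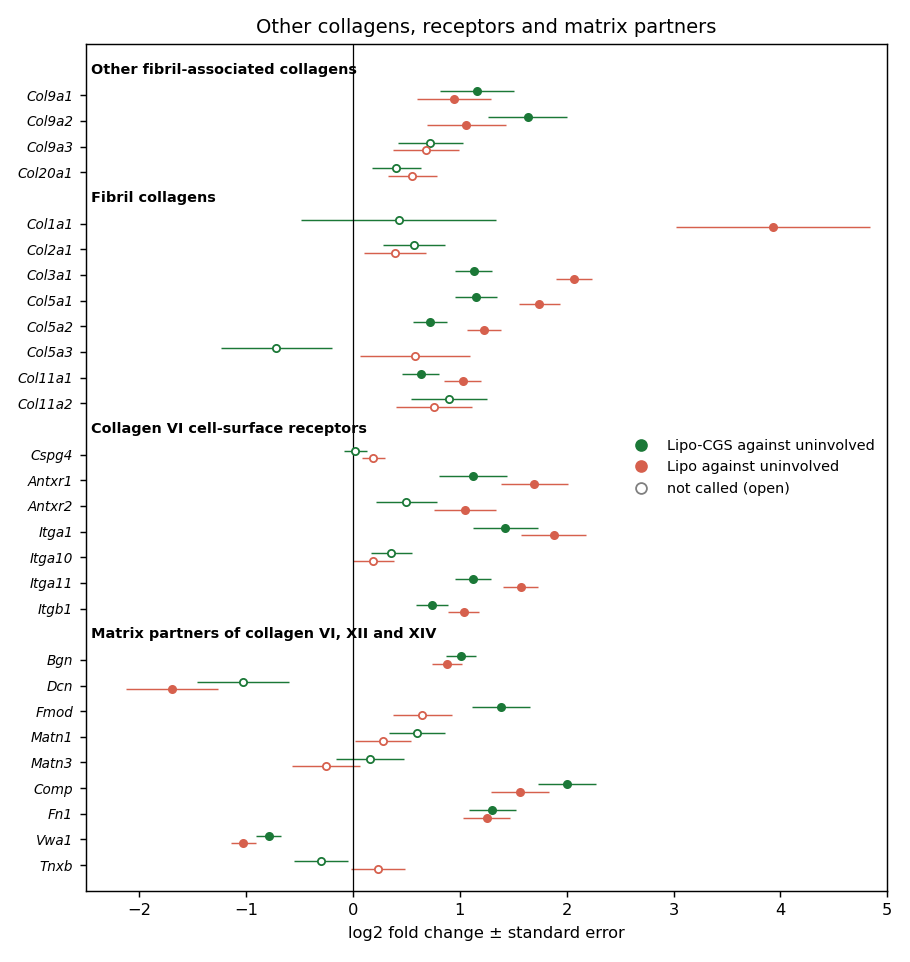
Log2 fold change ± standard error of the tested genes of the other collagens, receptors and matrix partners, for Lipo-CGS (green, upper of each pair) and Lipo (red, lower) against uninvolved knees, with open symbols where a gene was not called. Most collagens and receptors lie right of 0, Cspg4 lies near 0, and Vwa1 and Dcn lie left of it.

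The genes whose pattern over the 12 libraries was most like each member were named by the highest Pearson r on the log2 scale, as a description over libraries that share groups. For Col12a1 these were Ptprd, Agrn and Lamb2, with r of 0.99 each, and for Col14a1 Lima1, Nid1 and Adamts2, with r of 0.99 each. Agrn, Lamb2 and Nid1 encode agrin, laminin β2 and nidogen, all of basement membranes, and Adamts2 encodes a protease that trims the N-terminal propeptide of fibrillar procollagens. Nid1 averaged 14.4 ± 3.01 FPKM in Lipo-CGS knees and 20.5 ± 5.09 FPKM in Lipo knees, against 3.93 ± 3.23 FPKM in Saline and 2.10 ± 0.743 FPKM in uninvolved knees.

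For Col16a1 the closest were Zfr2, Comp and Obsl1, with r of 0.99, 0.99 and 0.98. After group means were removed these were 0.89, 0.96 and 0.95. The chains of collagen VI had looser neighbours. Col6a1 was most like Hpse, Cntln and Pkp1 (0.89, 0.88 and 0.87), Col6a2 like Tnfaip8l3, Hpse and Itga6 (0.90, 0.88 and 0.88), and Col6a3 like Cyp26b1, Aldh1l2 and Myocd (0.90, 0.90 and 0.89). Hpse encodes heparanase and Itga6 the laminin-binding integrin α6 chain. Both were lowest in Lipo-CGS knees, as Col6a1 and Col6a2 were, a likeness for which they were picked.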

How the data were processed

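Chondrocyte RNA of 12 libraries in 4 groups was analysed from 1 table of FPKM values deposited by the authors. The study's methods describe alignment with STAR to the rat genome Rnor_6.0 and counting with featureCounts, while the submitters' processing notes name HTSeq; how counts became FPKM was not stated. The deposited FPKM columns were already on a common scale (median-of-ratios factors of 0.9996 to 1.0005). Groups came from the sample labels. The members and gene lists were chosen with earlier results of these data known.

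log2(FPKM + 0.5) was fitted with limma 3.58.1 in R 4.3.3 (4 group means, empirical Bayes with trend) for 7 comparisons, in place of the count test of the study. The code was tested on simulated data. Ratios of chains were compared by exact permutation. All members were named, with the 3 genes most like each by r and up to 4 called genes of each list with the smallest adjusted p. Promoter sequences came from RefSeq. Alternatives were other pseudocounts (1 and 0.1), filters (none and 5 FPKM), median-of-ratios scaling, only the groups compared, a replicate block, robust variances, no fold limit and leaving out each library. Comparing 6 with 6 libraries by chain ratio was chosen after seeing the data. The pooled contrast of liposome-injected knees with knees without liposomes was also chosen with earlier results of these data known. Col1a2, Col21a1 and Hspg2 were not analysed here.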

Additional observations from a re-analysis of the deposited data

How the results depend on the processing

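The calls of Col12a1, Col14a1 and Col16a1 against uninvolved and Saline knees kept their direction and stayed called in all 21 alternatives, and in all 20 of the pooled liposome contrast. The number of all genes called in Lipo-CGS against Lipo was 19, and it was 42 with only the groups compared, 9 with a replicate block and 3 to 115 when single libraries were left out. In Saline against uninvolved it was 0, and 0 to 46 with single libraries left out. Without the fold limit, 6297 genes were called in Lipo and 5653 in Lipo-CGS against uninvolved, 5236 and 4493 against Saline, and 7170 in the pooled contrast, and 5 of 6 members were then called in Lipo-CGS against uninvolved. Replicate numbers shared by groups gave no clear sign of paired libraries. Over 18 same-numbered pairs the correlation of deviations ran from -0.22 to 0.20 and was over 0.1 in 2. With so few libraries a group this cannot exclude pairing, and the replicate block stands only as an alternative.

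Values near 0 changed sign when single libraries were left out. In Lipo-CGS against Lipo, Col16a1 ran from -0.10 to 0.25, Col12a1 from -0.34 to 0.16 and the Col6a1 to Col6a3 log2 ratio difference from -0.039 to 0.030. In Lipo against uninvolved, Col6a1 ran from -0.17 to 0.057, Col6a2 from -0.11 to 0.060 and Col6a1 to Col6a2 from -0.083 to 0.041. Col6a3 ran from -0.042 to 0.11 and Col6a1 to Col6a2 from -0.041 to 0.082 in Lipo-CGS against uninvolved, Col6a1 from -0.049 to 0.15 in Lipo against Saline, and Col6a1 to Col6a3 from -0.052 to 0.11 and Col6a2 to Col6a3 from -0.16 to 0.0039 in Saline against uninvolved. The cause was not tested. With 3 libraries a group, pooled animals and unknown depth, the p-values cover only the spread between these libraries.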
